A study of Mus musculus with 6 samples.

Results

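The mitochondrial genome is represented in these data by 13 genes, chosen as the rows of the deposited table whose gene name starts with mt-, out of 34745 genes in all. RNA was sequenced from the mouse line NOR-10 (fibroblasts of skeletal muscle) after incubation with D-galactose (D-gal) at 20 mg/mL for 3 days or with an equal amount of PBS as control, with n = 3 libraries per group. The line carries no engineered allele that the labels mention, and the labels do not say whether the libraries came from separate cultures, so the p-values measure only the spread between these libraries. All 13 rows were protein-coding genes. The reference annotation (GENCODE release M21, GRCm38) also places 2 rRNA genes and 22 tRNA genes on the mitochondrial chromosome. These were not analysed here, so the protein-coding genes could not be compared with the rRNA and tRNA classes, and the protein-coding share of a library is the share of all 13 rows.

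Mitochondria keep a small circular genome of their own. In mammals its protein-coding genes all encode subunits of the oxidative phosphorylation machinery, the chain of complexes in the inner membrane that passes electrons to oxygen and uses the energy to make ATP. The genes have no introns and are copied from both strands into long precursor RNAs. These are cut mainly at the tRNAs that lie between many, but not all, of the genes, and most of the mRNAs then receive poly(A) tails. The protein factors that copy the DNA, transcribe it, process the RNA and translate it are all encoded in the nucleus. D-gal is a sugar widely given to cells and mice to induce features of ageing.

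The 13 genes lie close together, and several share bases with a neighbour. mt-Nd1 (2751 to 3707 of chromosome MT, GRCm38, positions as the deposited table gives them) is the first protein-coding gene on the plus strand. It is followed by mt-Nd2 (3914 to 4951), mt-Co1 (5328 to 6872), mt-Co2 (7013 to 7696), mt-Atp8 (7766 to 7969), mt-Atp6 (7927 to 8607), mt-Co3 (8607 to 9390), mt-Nd3 (9459 to 9806), mt-Nd4l (9877 to 10173), mt-Nd4 (10167 to 11544), mt-Nd5 (11742 to 13565) and mt-Cytb (14145 to 15288). These 12 genes are read from the heavy-strand promoter. mt-Nd6 (13552 to 14070) is the only protein-coding gene of the opposite, light-strand transcript. In GENCODE release M21 each gene is a single exon, and the positions in the table matched it for all 13 genes.

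mt-Atp8 shares its last 43 bases (7927 to 7969) with the start of mt-Atp6, which are 21.1% of mt-Atp8 and 6.31% of mt-Atp6. Reads inside this stretch belong to both genes, and how the counting divided them is not given in the sources used here. The whole mt-Atp8 sequence is shown with the shared bases, which open with the start codon of mt-Atp6, in capitals.
mt-Atp8: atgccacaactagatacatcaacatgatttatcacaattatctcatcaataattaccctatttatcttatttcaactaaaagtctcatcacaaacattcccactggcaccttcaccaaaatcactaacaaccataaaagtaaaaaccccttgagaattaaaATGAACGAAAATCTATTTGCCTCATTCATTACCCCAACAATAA
mt-Nd4l and mt-Nd4 share 7 bases, mt-Atp6 and mt-Co3 share 1, and mt-Nd5 and mt-Nd6 share 14 on opposite strands.

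Pieces of the mitochondrial genome have also been copied into the nuclear genome, and reads from such copies can be taken for reads of the genes themselves, or the reverse. Of 11 annotated nuclear genes with at least 20% of their 31-base words in the 13 genes, 7 stand in 1 row on the minus strand of chromosome 1, between 24611535 and 24616197. In 5 of these 7 no base differed from the matching mitochondrial gene over the aligned length, among them Gm28661 (681 bases of mt-Co2) and Gm10925 (678 bases of mt-Atp6). The 3 pairs shown are stretches where gene and copy do differ, with the differing bases in capitals, because only such bases let a read be placed. Within mt-Nd3, bases 1 to 60 hold the single difference from Gm28438.
mt-Nd3: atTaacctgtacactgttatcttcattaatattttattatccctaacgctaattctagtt
Gm28438: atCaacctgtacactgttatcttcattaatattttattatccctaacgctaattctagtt
Bases 1054 to 1113 of mt-Co1 hold all 6 differences from the chromosome 1 copy Gm29216.
mt-Co1: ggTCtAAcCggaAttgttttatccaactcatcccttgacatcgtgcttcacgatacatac
Gm29216: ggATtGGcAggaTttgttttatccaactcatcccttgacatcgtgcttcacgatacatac
Bases 460 to 519 of mt-Co1 hold 4 of the 37 differences from Gm13340, a copy on chromosome 2 that spans the 1545 bases of the gene.
mt-Co1: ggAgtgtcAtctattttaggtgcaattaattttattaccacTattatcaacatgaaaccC
Gm13340: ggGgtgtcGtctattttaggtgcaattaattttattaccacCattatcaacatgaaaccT

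Library totals ranged from 16876087 to 20830349 counts in the control group and 13759108 to 15157064 in the D-gal libraries. No pair of replicates agreed within sampling noise. The 9 fibroblast markers checked were all detected, with a summed level of 7529 to 7693 CPM (counts scaled to equal library totals) in the control group and 5070 to 5363 CPM in the D-gal group, 6 of them called lower and 1 called higher in edgeR (adjusted p under 0.05). Lists of myoblast, endothelial, leukocyte, epithelial and adipocyte markers summed to at most 9.40 CPM each in any library. Of these, the epithelial sum was 6.82 to 8.36 CPM in control and 1.78 to 2.54 CPM in D-gal libraries, with Cdh1 called lower (log2 fold change -1.79, adjusted p = 2.0e-04 in edgeR), and the myoblast marker Des was called lower too (-0.78, adjusted p = 0.00898 in edgeR). Their part in the results was not tested. Gm26917, an RNA that maps to nuclear ribosomal DNA repeats, rose by a log2 fold change of 0.84 (edgeR, adjusted p = 0.0010), and its part in the shares of other genes was not tested. In bulk RNA a change in the share of a transcript cannot be told apart from a change in the number of cells, mitochondria or RNA molecules per cell.

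The mitochondrial genes took a larger part of the RNA in D-gal cells, but by a small amount. Together they accounted for 4.26% to 4.44% of a control library (mean 4.34% ± 0.0948, SD, n = 3) and 4.87% to 4.98% in D-gal libraries (4.91% ± 0.0635, SD, n = 3). The groups did not overlap, and the difference in mean log2 share was 0.18. At this depth the Wilson 95% interval of the summed share, which covers counting error only, reached 0.204% to 0.234% of the value to either side. With the shares taken over nuclear genes and their TMM scaling, the difference was 0.15.

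Of the 13 genes, 8 rose and 0 fell at an adjusted p under 0.05 in edgeR, adjusted by Benjamini-Hochberg over all 13407 genes tested. Among all genes tested, 34.8% passed this threshold, 16.9% as higher and 17.8% as lower. DESeq2 called 7 higher and 0 lower, and in edgeR 1 gene, mt-Nd5, was lower at an unadjusted p under 0.05. None of the 13 passed both this and the study's fold criterion of 1 on the log2 scale, which 4.21% of all genes tested did. The median log2 fold change was 0.12 for the 13 genes and 0.0036 for all genes tested. Small changes pass the test more easily in abundant genes. Of the 306 genes at least as abundant as mt-Nd3, 65.7% were called, 21.6% as higher, with a median log2 fold change of -0.07.

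**Figure D1:**
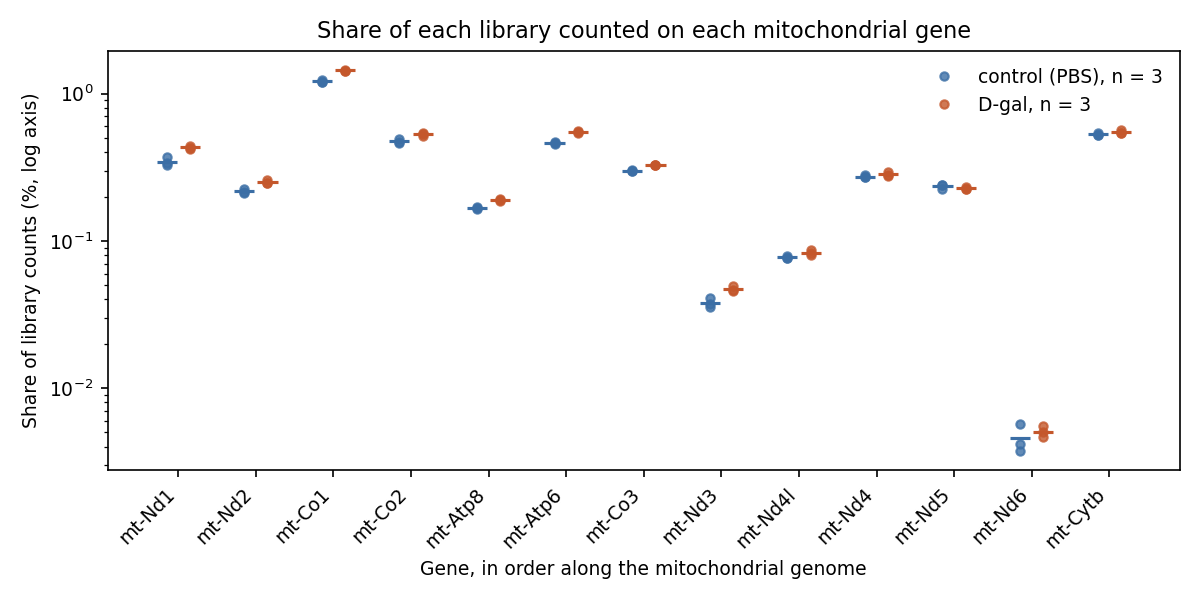
Percent of each library's counts held by each of the 13 mitochondrial genes, on a log axis, with one point per library for the control and D-gal groups (n = 3 each) and the mean as a bar. mt-Co1 stood at 1.19% to 1.24% in control and 1.43% to 1.45% in D-gal libraries, while the points of mt-Nd6, near 0.005%, overlapped.

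Per base of gene length the mitochondrial mRNAs were among the most abundant transcripts in these cells. On the FPKM scale, which divides counts by gene length and library total, the 9 highest genes of the control group were all mitochondrial. The lengths used were the full gene lengths, 204 bases for mt-Atp8 and 297 for mt-Nd4l. How reads crossing the ends of such short genes were counted is not given in the sources used here, so their ranks are uncertain. mt-Atp8, a short subunit of the ATP synthase, was highest with 8202 ± 156 FPKM (SD, n = 3), followed by mt-Co1 with 7860 ± 175, and the libraries of these neighbours overlapped. mt-Co2 (6929 ± 189) and mt-Atp6 (6782 ± 98.1) came next and overlapped each other too. mt-Cytb (4622 ± 114) stood apart from the genes above and below it. mt-Co3 (3825 ± 50.8) and mt-Nd1 (3589 ± 238) overlapped, and below them came mt-Nd4l (2611 ± 49.96), mt-Nd2 (2090.4 ± 67.3), mt-Nd4 (1982 ± 40.9), mt-Nd5 (1292 ± 43.2) and mt-Nd3 (1090.3 ± 75.4). The light-strand gene mt-Nd6 was lowest with 87.8 ± 20.04 FPKM and ranked 432 among all genes. In the D-gal group mt-Atp8 (9296 FPKM) and mt-Co1 (9287 FPKM) again led, and 3 pairs of neighbours stood in the other order: mt-Atp6 (8051) above mt-Co2 (7732), mt-Nd1 (4499) above mt-Co3 (4171), and mt-Nd3 (1347) above mt-Nd5 (1244).

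Complex I, NADH dehydrogenase, is the entry point of electrons from NADH, and 7 of the 13 genes encode its membrane arm. In this complex mt-Nd1, mt-Nd2 and mt-Nd3 rose, while mt-Nd4l, mt-Nd4, mt-Nd5 and mt-Nd6 did not pass the test. mt-Nd1 held 0.369%, 0.325% and 0.336% of the counts in control replicates 1 to 3 and 0.442%, 0.428% and 0.422% in D-gal replicates 1 to 3. Every D-gal library lay above every control library, and the log2 fold change was 0.29 (SE 0.04, adjusted p = 0.00178 in edgeR), the largest of the 13. mt-Nd3 held 0.0409%, 0.0358% and 0.0371% in control and 0.0491%, 0.0461% and 0.0454% in D-gal libraries. Its groups did not overlap either, and its log2 fold change was 0.27 (SE 0.05, adjusted p = 0.00618 in edgeR). mt-Nd2 held 0.212% to 0.225% in control and 0.248% to 0.260% in D-gal libraries, a log2 fold change of 0.18 (SE 0.03, adjusted p = 0.0032 in edgeR).

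The 4 remaining complex I genes lie later on the plus strand or on the light strand. mt-Nd5, the longest of the 13 genes and the only one with a negative log2 fold change, held 0.227%, 0.241% and 0.239% in control and 0.231%, 0.226% and 0.223% in D-gal libraries. D-gal replicate 1 lay above control replicate 1, so the groups overlapped, and the log2 fold change was -0.09 (SE 0.03, adjusted p = 0.0588 in edgeR). Without control replicate 1 it was -0.12 (adjusted p = 0.0133 in edgeR), without D-gal replicate 1 it was -0.11 (adjusted p = 0.0497 in edgeR), and with no filter on low counts it was -0.10 (adjusted p = 0.0278 in edgeR). mt-Nd4 held 0.270% to 0.280% in control and 0.274% to 0.295% in D-gal libraries, a log2 fold change of 0.02 (SE 0.03, adjusted p = 0.732 in edgeR). mt-Nd4l had a log2 fold change of 0.07 (SE 0.04, adjusted p = 0.187 in edgeR). Its shares, 0.0763% to 0.0792% in control and 0.0803% to 0.0865% in D-gal libraries, did not overlap, but after TMM scaling the groups of both genes did. mt-Nd6 had 1115, 779 and 710 counts in control and 818, 703 and 694 in D-gal libraries, with control replicate 1 above all other libraries. Its log2 fold change was 0.12 (SE 0.15, adjusted p = 0.584 in edgeR), and without control replicate 1 it was 0.31 (adjusted p = 0.046 in edgeR). Counting error at this depth reached 5.87% to 7.44% of its share to either side (Wilson 95% interval), against at most 2.48% for the other 12 genes. Whether counting used the strand is not given in the sources used here. If it did not, reads of mt-Nd6 and reads from heavy-strand RNA across the same bases cannot be told apart.

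Complex III passes electrons on to cytochrome c, and its only mitochondrial gene, mt-Cytb, encodes cytochrome b. mt-Cytb held 0.544%, 0.520% and 0.523% of the counts in control and 0.563%, 0.544% and 0.544% in D-gal libraries. The lowest D-gal and the highest control library were level to 3 digits, and after TMM scaling the groups overlapped. The log2 fold change was 0.02 (SE 0.03, adjusted p = 0.525 in edgeR).

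Complex IV, cytochrome c oxidase, hands the electrons to oxygen, and mt-Co1, mt-Co2 and mt-Co3 encode its catalytic core. All 3 rose. mt-Co1 held 1.24%, 1.19% and 1.20% in control and 1.43%, 1.45% and 1.43% in D-gal libraries. The groups did not overlap, and the log2 fold change was 0.21 (SE 0.02, adjusted p = 1.7e-04 in edgeR), the smallest p of the 13. mt-Co2 held 0.464% to 0.489% in control and 0.518% to 0.540% in D-gal libraries, a log2 fold change of 0.12 (SE 0.03, adjusted p = 0.00918 in edgeR). mt-Co3 held 0.296% to 0.304% in control and 0.326% to 0.328% in D-gal libraries, a log2 fold change of 0.09 (SE 0.02, adjusted p = 0.011 in edgeR), and DESeq2 did not call it (adjusted p = 0.0697).

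The ATP synthase uses the proton gradient to make ATP, and mt-Atp6 encodes a subunit of its proton channel. Both mitochondrial genes of the enzyme rose. mt-Atp6 held 0.467%, 0.454% and 0.464% in control and 0.561%, 0.537% and 0.547% in D-gal libraries, with no overlap and a log2 fold change of 0.21 (SE 0.02, adjusted p = 4.2e-04 in edgeR). mt-Atp8 held 0.164% to 0.171% in control and 0.188% to 0.192% in D-gal libraries, a log2 fold change of 0.15 (SE 0.02, adjusted p = 0.00262 in edgeR). For each of the 8 genes called, all D-gal libraries lay above all control libraries after TMM scaling, which 24.1% of all genes tested showed in this direction and 49.1% in either. The two-sided exact permutation test over libraries gave p = 0.1 for each, the smallest that 3 against 3 allows.

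The rise was uneven among the 13 genes. Scaled to the summed mitochondrial counts instead of the library, a choice made after the data had been seen, mt-Nd1 (log2 fold change 0.15, adjusted p = 0.00975) and mt-Nd3 (0.13, adjusted p = 0.0473) were higher in edgeR. mt-Nd5 (-0.23, adjusted p = 0.00213), mt-Nd4 (-0.13, adjusted p = 0.00732) and mt-Cytb (-0.12, adjusted p = 0.00339) were lower in the same fit. The other 8 genes were not called, with log2 fold changes of -0.08 to 0.07. Of all 13407 genes tested, 5595 were called in this fit. In this scaling the median of all genes tested moved to -0.14, so it describes composition within the mitochondrial RNA and not levels in the cell. By complex, the complex IV genes held 45.9% ± 0.0736 of the mitochondrial counts in control and 46.7% ± 0.543 in D-gal libraries (SD, n = 3). The ATP synthase genes held 14.5% ± 0.134 and 15.04% ± 0.124, and mt-Cytb held 12.2% ± 0.0545 and 11.2% ± 0.0798 (SD, n = 3). For these 3 sets the groups did not overlap, whereas the complex I genes, with 27.4% ± 0.159 in control and 27.1% ± 0.382 in D-gal libraries (SD, n = 3), overlapped.

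**Figure D2:**
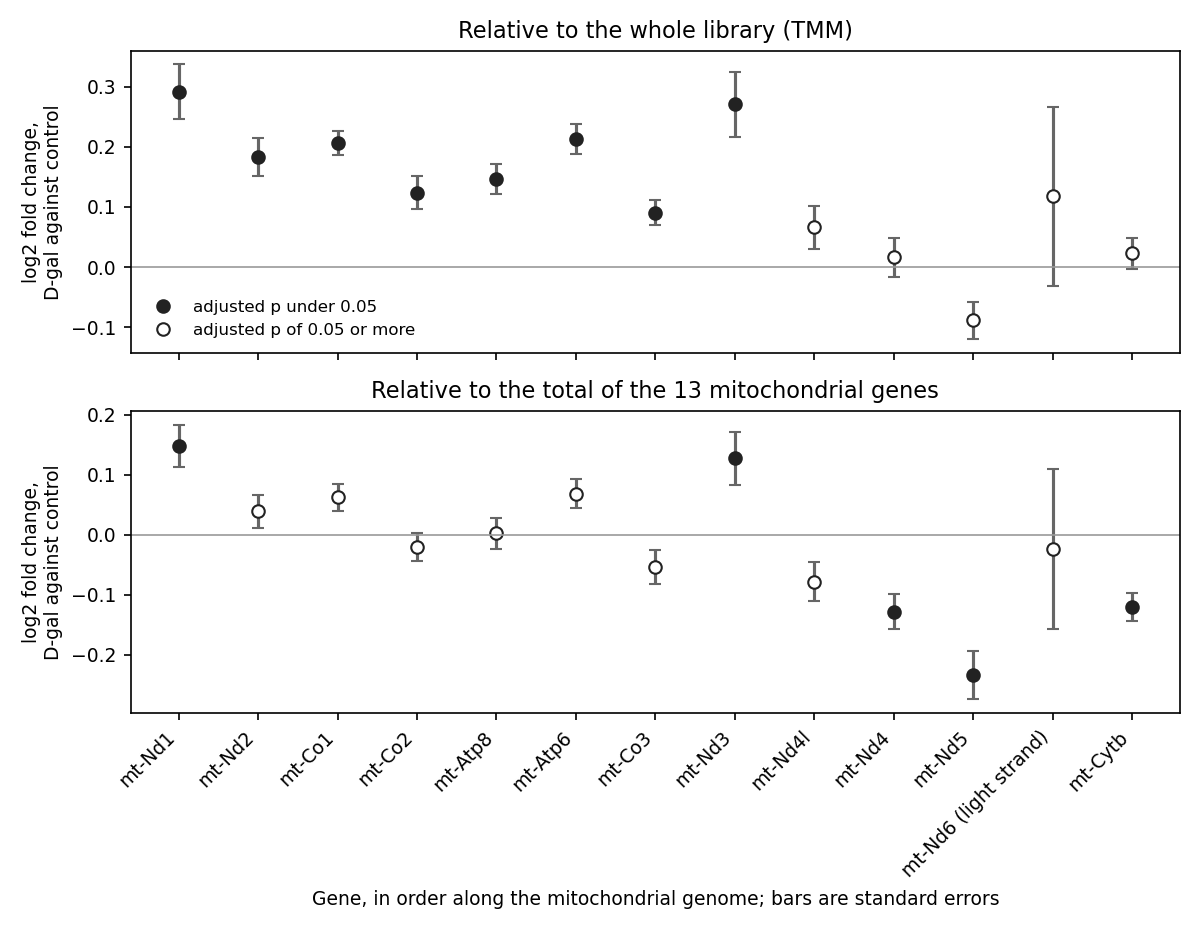
Log2 fold change of D-gal against control for the 13 mitochondrial genes in their order on the genome, with bars of 1 standard error, scaled by TMM (upper panel) and to the summed mitochondrial counts (lower panel); filled points passed an adjusted p under 0.05 in edgeR. By TMM the values ran from -0.09 for mt-Nd5 to 0.29 for mt-Nd1, with all 6 genes from mt-Nd1 to mt-Atp6 called higher.

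Position along the heavy-strand transcript went with the size of the change. All of the first 6 genes, mt-Nd1 to mt-Atp6, were called higher, with a median log2 fold change of 0.19 and a range of 0.12 to 0.29. Of the last 6, mt-Co3 to mt-Cytb, mt-Co3 and mt-Nd3 were called, with a median of 0.04 and a range of -0.09 to 0.27. The counts of the first 6 genes divided by those of the last 6 gave 2.02, 1.96 and 1.97 in control and 2.21, 2.25 and 2.24 in D-gal libraries. The split was made after the values had been seen, so it carries no test. Leaving out 1 replicate at a time, the difference in the log2 of this ratio lay between 0.16 and 0.19. Across the 12 genes, Spearman's correlation of the log2 fold change with order was -0.75, and Pearson's was -0.76. Across all 13 genes, Spearman's correlation was -0.21 with GC content, -0.32 with gene length and 0.07 with the percent of sequence shared with nuclear genes of the table. These correlations are descriptions across genes that share the same 6 libraries and the same transcripts.

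A single pair showed the difference library by library. The ratio of mt-Co1 to mt-Nd5 counts, the third and the eleventh gene in this order, a pair also taken after the values had been seen, was 5.50, 4.96 and 5.03 in control and 6.18, 6.41 and 6.38 in D-gal libraries. mt-Nd3 departed from the order, with a log2 fold change of 0.27 between 0.09 for mt-Co3 upstream and 0.07 for mt-Nd4l downstream. For the light strand, the log2 ratio of mt-Nd6 counts to the sum of the other 12 genes was -9.92 ± 0.287 in control and -9.92 ± 0.109 in D-gal libraries (SD, n = 3), and the groups overlapped.

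The nuclear copies held a small part of the reads, steady relative to the counts of the genes they match. As a share of the library the 11 copies held 0.168% to 0.181% in control and 0.191% to 0.208% in D-gal libraries, without overlap. Together the 11 copies held 3.78% to 4.01% of the counts of copies and genes combined, with overlapping groups. The largest counts were those of copies identical to their gene over the aligned bases. Gm10925, at 24613974 to 24614651 of chromosome 1, had 10069, 10137 and 8440 counts in control and 9314, 8762 and 7797 in D-gal libraries. This was 9.79% ± 0.154 of the counts of Gm10925 and mt-Atp6 in control and 9.72% ± 0.339 in D-gal libraries (SD, n = 3). Gm28661, at 24614885 to 24615565, held 8.70% ± 0.123 and 8.81% ± 0.213 of the pair with mt-Co2. The other 3 identical copies were Gm28437, Gm10222 and Gm28439. Gm28437 held 8.42% and 8.43% of the pair with mt-Co3, Gm10222 held 9.05% and 8.61% of the pair with mt-Nd4l, and Gm28439 held 5.14% and 5.41% of the pair with mt-Nd4 (control and D-gal means). Gm28438, which differs from mt-Nd3 by the single base shown above, held 8.86% ± 0.748 and 8.73% ± 0.534.

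The 3 copies with 6 or more differences held less of their pair. Of these, Gm29216 and Gm13339 also align to only part of their gene, 492 of 1545 and 510 of 1038 bases, while Gm13340 spans its gene. Among the identical copies, Gm28439, aligned over 876 of 1378 bases, held the least. The parts of differences and of aligned length were not tested. Gm29216, with 6 differences in 492 bases, held 1.45% and 1.36% of the pair with mt-Co1, and Gm13340, with 37 in 1545 bases, held 0.553% and 0.566% (control and D-gal means). Gm13339, a chromosome 2 copy with 17 differences in 510 bases of mt-Nd2, had 14 to 29 counts per library. Of the 11 copies, 3 were higher in D-gal cells in edgeR, Gm13340 (log2 fold change 0.24, adjusted p = 0.0097), Gm10925 (0.20, adjusted p = 0.0103) and Gm28661 (0.15, adjusted p = 0.0392). Gm13341 was not tested. Among all genes tested, 34.8% were called, 16.9% as higher. The call of Gm28661 was lost without control replicate 2 (adjusted p = 0.112), control replicate 3 (adjusted p = 0.10), D-gal replicate 1 (adjusted p = 0.099) or D-gal replicate 3 (adjusted p = 0.0678) in edgeR. With sequence identical over a whole read, counts on these copies and on the genes cannot be told apart. When the counts of each copy were added to its gene, 8 genes were again called. mt-Nd1, mt-Nd6 and mt-Cytb share no 31-base word with the annotated nuclear genes of the table. Outside the table, GENCODE release M21 holds Gm11408, with 36 such words of mt-Nd6, and Gm11410, with 73 of mt-Cytb. Among the 3 mitochondrial genes mt-Nd1 was called (log2 fold change 0.29), and mt-Nd6 (0.12, adjusted p = 0.584) and mt-Cytb (0.02, adjusted p = 0.525) were not in edgeR. The part of the copies in the changes was not tested beyond the sum of counts.

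**Figure D3:**
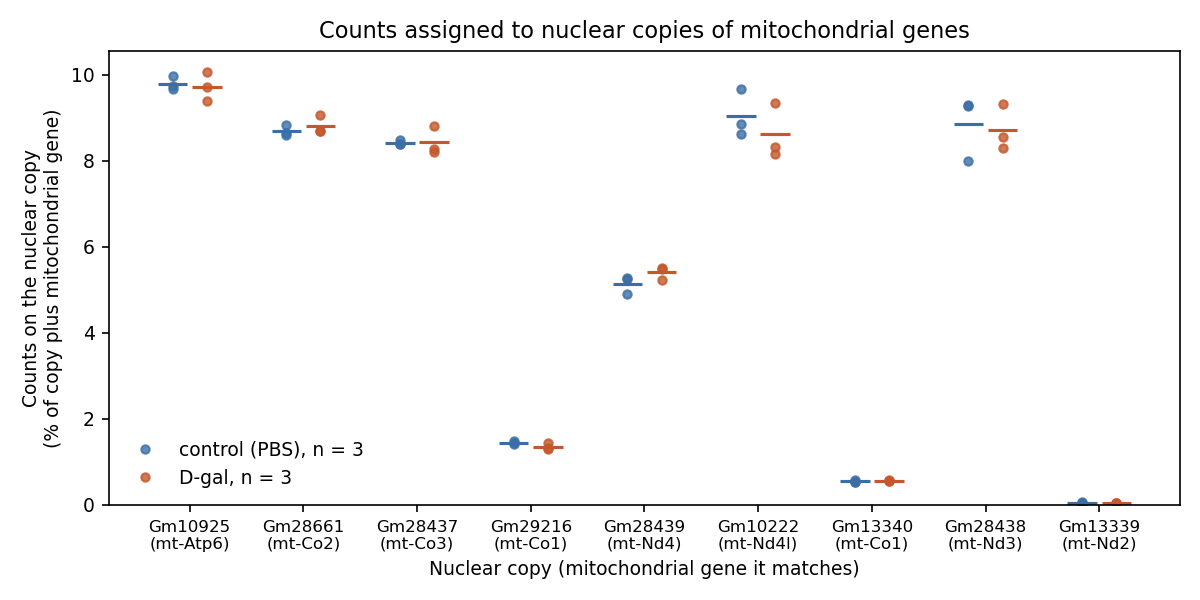
Percent of the counts of a nuclear copy and its mitochondrial gene together that fell on the copy, one point per library, for the 9 copies with at least 100 counts over the 6 libraries (control and D-gal groups, n = 3 each). The copies with 0 or 1 difference held 4.89% to 10.1% of their pair in every library, and those with 6 or more held at most 1.49%. The copies also differ in how much of their gene they cover, and the part of this was not tested.

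Most of the nuclear genes that maintain and express the mitochondrial genome did not pass the test. Of 198 names of such genes listed from general knowledge, 193 matched a gene that was tested. The names included old and new symbols of the same gene, such as Gars and Gars1. Of the 193, edgeR called 29 higher and 9 lower (adjusted p under 0.05). This is 19.7%, where 34.8% of all genes tested were called, and no test of this difference was made. Their median log2 fold change was 0.06. The count fell to between 20 and 27 with each replicate left out in turn, and was lowest without D-gal replicate 2 (20) and control replicate 1 (22). Calls over all genes tested fell too in these fits, from 4661 to between 3651 and 4009.

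Among 7 tested regulators of mitochondrial biogenesis, 2 rose, 28.6% against 34.8% of all genes tested. Ppargc1a, which encodes the coactivator PGC-1α, was the only one of all 193 to pass the fold criterion too. It had 51, 57 and 42 counts in control and 84, 92 and 91 in D-gal libraries, a low level, with no overlap. The log2 fold change was 1.18 (SE 0.14, adjusted p = 4.6e-04 in edgeR). With a replicate left out it was 1.13 to 1.24. Over all alternatives tried it was 0.40 at the lowest, below the fold criterion, though the call was never lost. Ppargc1b, which was not tested, had 7, 5 and 8 counts in control and 0, 1 and 0 in D-gal libraries. Esrra, the nuclear receptor ERRα, which works with PGC-1α, had a log2 fold change of 0.37 (SE 0.10, adjusted p = 0.0267 in edgeR). It overlaps Mir6990 on its own strand and Trmt112 on the other, and its call was lost without control replicate 2 (adjusted p = 0.0844), control replicate 3 (adjusted p = 0.0761) or D-gal replicate 3 (adjusted p = 0.0752) in edgeR. Nrf1, the nuclear respiratory factor, had 377 to 485 counts in control and 300 to 366 in D-gal libraries and was not called (log2 fold change 0.02, SE 0.07, adjusted p = 0.849 in edgeR). Gabpb1, a subunit of the nuclear respiratory factor GABP, was not called either (-0.08, adjusted p = 0.480 in edgeR).

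Of 19 genes for the upkeep of mitochondrial DNA, 1 was higher and 3 lower, 21.1% against 34.8% of all genes tested. Tfam, which packages the DNA and starts its transcription, had 1589, 1802 and 1407 counts in control and 1166, 1106 and 1056 in D-gal libraries. After TMM scaling the levels were 1425 ± 43.0 and 1263 ± 51.1 counts (SD, n = 3), with no overlap and a log2 fold change of -0.17 (SE 0.05, adjusted p = 0.023 in edgeR). Its call was lost without control replicate 2 (adjusted p = 0.080), control replicate 3 (adjusted p = 0.0566), D-gal replicate 2 (adjusted p = 0.0735) or D-gal replicate 3 (adjusted p = 0.0527) in edgeR, and DESeq2 did not call it (adjusted p = 0.0544). Mpv17, an inner membrane protein needed for the nucleotide supply of mitochondrial DNA, had a log2 fold change of -0.40 (adjusted p = 0.0093 in edgeR), but 19.4% of its sequence also occurs in other genes and Gm29609 overlaps it on its strand. Rrm2b, a ribonucleotide reductase subunit, was higher (0.30, adjusted p = 0.0277 in edgeR). It overlaps Gm49085 on the other strand, and 14.4% of its sequence also occurs in other genes. It lost its call in edgeR without control replicate 1 (adjusted p = 0.0816), control replicate 2 (adjusted p = 0.0859), D-gal replicate 1 (adjusted p = 0.0695) or D-gal replicate 2 (adjusted p = 0.0725), and in DESeq2 (adjusted p = 0.0590). Polg, the catalytic subunit of the mitochondrial DNA polymerase (-0.02, adjusted p = 0.90), and Twnk, the helicase (-0.07, adjusted p = 0.450, 13.3% of its sequence shared), did not pass the edgeR test.

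Of 9 transcription genes, 3 were higher and 0 lower, with a median log2 fold change of 0.17. This is 33.3% called, near the 34.8% of all genes tested. Polrmt, the mitochondrial RNA polymerase, had 954, 983 and 739 counts in control and 786, 829 and 825 in D-gal libraries. After TMM scaling the levels were 793 ± 43.2 and 927 ± 59.1 counts (SD, n = 3), giving a log2 fold change of 0.22 (SE 0.07, adjusted p = 0.0325 in edgeR). Tefm, the elongation factor, rose by a log2 fold change of 0.34 (SE 0.11, adjusted p = 0.0457 in edgeR), and Mterf1a, a member of the termination factor family with 30.5% of its sequence also in other genes, by 0.56 (adjusted p = 0.0343 in edgeR). None of these 3 calls was stable when a replicate was left out. Polrmt was not called in edgeR without control replicate 2 (adjusted p = 0.0708), control replicate 3 (0.0965), D-gal replicate 2 (0.0617) or D-gal replicate 3 (0.0974). For Tefm the adjusted p was 0.127 without control replicate 1, 0.108 without control replicate 3, 0.119 without D-gal replicate 1 and 0.121 without D-gal replicate 2. For Mterf1a it lay between 0.067 and 0.0935 without control replicate 1 or 3 or without any 1 of the D-gal replicates. DESeq2 called neither Tefm (adjusted p = 0.117) nor Mterf1a (adjusted p = 0.105). Tfb2m, which opens the promoter together with the polymerase, had a log2 fold change of -0.07 (adjusted p = 0.635 in edgeR) and 36.4% of its sequence also occurs in other genes.

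Of 23 genes for the processing and stability of mitochondrial RNA, 6 were higher and 1 lower, 30.4% against 34.8% of all genes tested. Elac2, the nuclease that cuts the 3′ ends of tRNAs out of the precursor, had 824 ± 30.9 normalized counts in control and 1059 ± 6.73 in D-gal libraries (SD, n = 3), for a log2 fold change of 0.36 (SE 0.05, adjusted p = 9.0e-04 in edgeR), and it overlaps Arhgap44 on the other strand. Rexo2, which degrades very short RNAs in mitochondria, rose from 1515 ± 38.0 to 1917 ± 56.6 normalized counts (SD, n = 3), for a log2 fold change of 0.34 (SE 0.04, adjusted p = 4.9e-04 in edgeR). Both kept their calls under every scaling, filter, tool and left-out replicate tried for the nuclear genes. Lrpprc, which stabilises mitochondrial mRNAs and promotes their polyadenylation, was the gene that fell, from 1568 ± 26.7 to 1395 ± 15 normalized counts (SD, n = 3), for a log2 fold change of -0.17 (SE 0.04, adjusted p = 0.00959 in edgeR). Limma on log2(FPKM + 1) did not call it (adjusted p = 0.0586). Slirp, the binding partner of Lrpprc, had 186 to 369 counts per library and a log2 fold change of 0.12 (SE 0.25, adjusted p = 0.762 in edgeR), and 94.1% of its sequence is shared with other genes, so its value is uncertain.

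**Figure D4:**
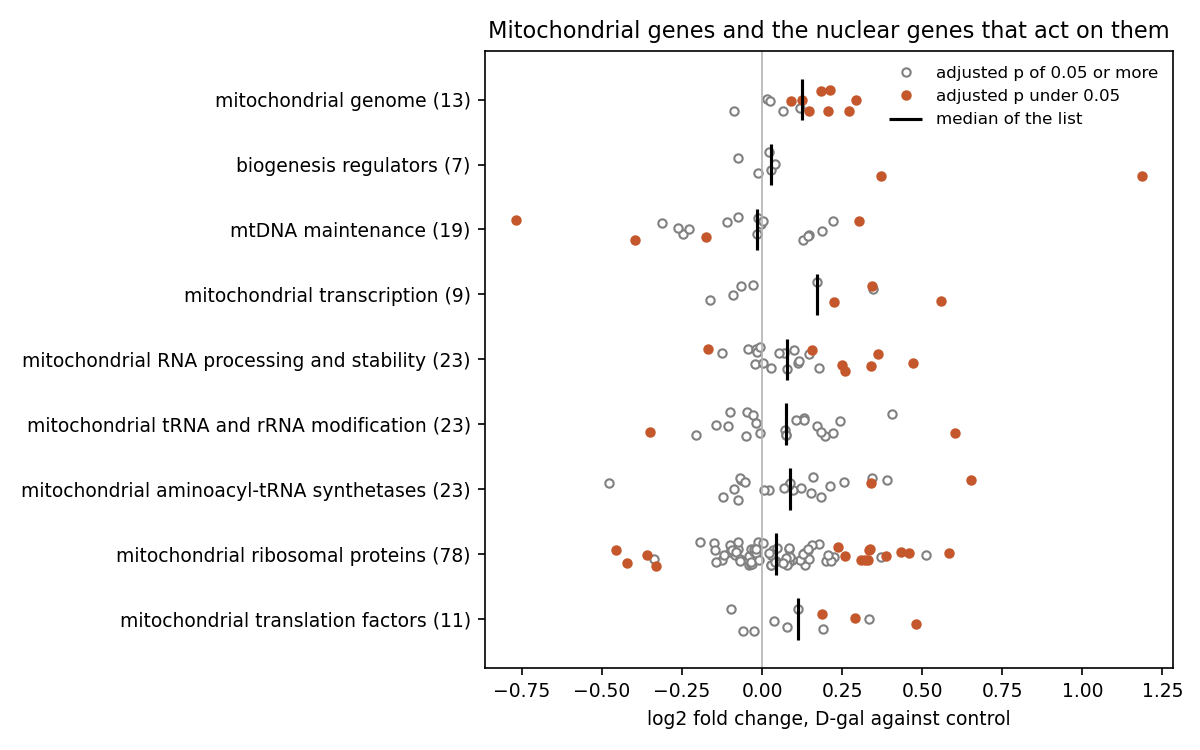
Log2 fold change of D-gal against control for each of the 13 mitochondrial genes and each tested gene of 8 lists of nuclear genes that maintain or express the mitochondrial genome; filled points passed an adjusted p under 0.05 in edgeR and lines mark the medians. The median was 0.12 for the mitochondrial genes, 0.17 for transcription and -0.02 for DNA maintenance, and Ppargc1a at 1.18 stood alone above 1 among called genes.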

How the data were processed

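Per the labels and the methods, the authors prepared 6 libraries from NOR-10 cells, checked and trimmed the reads, and deposited 1 table. The labels name an RNA-seq kit, which is taken as the library type here, although the methods name a small RNA kit. The submitters' processing notes name HISAT2 (version 2.0.4). The counting tool, its strand setting and the annotation are not given in the sources used here. The deposited values are raw read counts per gene and, from the authors, FPKM values, which divide the counts by gene length and library total. There were 0 per-sample columns outside the 6 libraries.

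Counts were tested with edgeR (version 4.0.16, R 4.3.3): TMM scaling, filterByExpr, quasi-likelihood test and Benjamini-Hochberg adjustment over 13407 genes, with no covariate. SE was taken from the fold change and its F statistic. The biological coefficient of variation was 9.47%, and the TMM factors lay between 0.986 and 1.01. FPKM served for levels between genes and, with limma (version 3.58.1), as an alternative. DESeq2 (version 1.42.0), other scalings and filters, a replicate block, left-out replicates and added counts of nuclear copies were the further alternatives. Scaling to the mitochondrial total and the ratios between genes were added after the data had been seen. No p is given for sums over the 13 genes. Sequence was called shared where a gene's 31-base words were also found in other annotated genes of GENCODE release M21.

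The genes named are the 13, the 3 with the smallest p of each nuclear list, 11 preset regulators and factors, and the nuclear copies with at least 100 counts. A gene of the translation factor list that the rule names is not reported here. The 13 genes and the lists were chosen with earlier results of these data known. On simulated counts for 13419 genes of the D-gal against control comparison, edgeR recovered 193 of 200 changed genes, with 2.53% false among those called. These rates are for all 200 genes together. All simulated log2 fold changes were at least 1 in size, larger than that of any of the 13 genes. Recovery of changes as small as theirs was therefore not tested.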

Additional observations from a re-analysis of the deposited data

How the results depend on the processing

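The count of 8 mitochondrial genes called was 7 to 10 under all other scalings, filters, tools, left-out replicates (8 to 10) and with the replicate block (8), except under scaling to the mitochondrial total, where it was 5 and the median log2 fold change of the 13 genes was -0.020. There mt-Co2 (-0.020), mt-Co3 (-0.054), mt-Nd4l (-0.078), mt-Nd4 (-0.13), mt-Nd6 (-0.024) and mt-Cytb (-0.12) changed sign, because that scaling sets the summed genes equal. mt-Nd4 was -0.017 without D-gal replicate 1 (at most 0.041 with another replicate left out), and mt-Nd6 ranged from -0.0075 to 0.31. The replicate numbers did not pair the libraries (correlations -0.01 to 0.03). With the replicate block 31 nuclear genes were called, against 38 without it. Among those named it lost Tfam (adjusted p = 0.0601), Rrm2b (0.0585), Polrmt (0.0737), Tefm (0.0675), Mterf1a (0.0628) and Mtrf1 (0.0626), and it changed the call of 0 of the 13 mitochondrial genes. The nuclear count was 13 at an adjusted p under 0.01, 20 to 27 with a replicate left out, 49 with limma and 30 with DESeq2. Calls over all genes tested were 4661 in the main fit and 3651 to 4009 with a replicate left out. They were 4547 with limma, 3873 with DESeq2 and 3982 with the replicate block. The log2 ratio of mt-Nd6 to the other genes differed by -0.0068 between groups, by 0.0090 as a mean over genes, and by -0.12 to 0.15 with a replicate left out (0.15 without control replicate 1, 0.05 without D-gal replicate 2). Genes near 0 that changed sign were Polg (0.019 with library totals, 0.014 with upper quartile factors, 0.015 with limma, -0.083 to 0.042 with a replicate left out), Tfb2m (-0.14 to 0.018), Slirp (-0.034 to 0.35), Nrf1 (-0.011 to 0.065), Gm10222 (0.024 with library totals, 0.020 with upper quartile factors, 0.020 with limma, -0.12 to 0.060) and Gm13339 (-0.30 to 0.0040). The causes were not tested. The planned comparisons with rRNA and tRNA genes were not run, since no such row was analysed. Depth limited mt-Nd6 most.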

Other observations

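Of 78 mitochondrial ribosomal proteins tested, 11 were higher and 4 lower in edgeR, 19.2% against 34.8% of all genes tested, with a median log2 fold change of 0.04. Mrpl28, a protein of the large subunit, had a log2 fold change of -0.36 (adjusted p = 0.00119 in edgeR), while Mrpl45 (0.33, adjusted p = 0.00166, 13.4% of its sequence shared) and Mrpl17 (0.33, adjusted p = 0.00252) rose. These 3 calls held under every scaling, filter, tool and left-out replicate tried for the nuclear genes. Of 11 translation factors, 3 were higher and 0 lower, 27.3% against 34.8% of all genes tested, with a median of 0.11. Mtrf1l, a release factor, rose by 0.29 (adjusted p = 0.0182 in edgeR), and Mtrf1, a release factor homologue, by 0.48 (adjusted p = 0.0443 in edgeR).

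Of 23 aminoacyl-tRNA synthetases tested, 2 were higher and 0 lower, 8.70% against 34.8% of all genes tested, with a median log2 fold change of 0.09. They were Nars2 (0.65, adjusted p = 0.0337) and Hars2 (0.34, adjusted p = 0.0417), for asparagine and histidine, and both overlap a gene on the other strand. Gars, the glycine enzyme shared with the cytosol, had a log2 fold change of 0.10 (adjusted p = 0.0523 in edgeR). Of 23 enzymes that modify mitochondrial tRNA and rRNA, 1 was higher and 1 lower, also 8.70%, with a median of 0.07. Trmt61b, a tRNA methyltransferase with 41 to 70 counts per library, was higher (0.60, adjusted p = 0.0333) and overlaps Spdya on the other strand, and Qtrt1, a subunit of the enzyme that inserts queuine into tRNA, was lower (-0.35, adjusted p = 0.0324). Trmt2b, another methyltransferase, had a log2 fold change of -0.21 (adjusted p = 0.0584 in edgeR).

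With a replicate left out, Mtrf1l was not called in edgeR without control replicate 1 (adjusted p = 0.0569), D-gal replicate 1 (0.0546) or D-gal replicate 2 (0.0505). Mtrf1, Nars2, Hars2, Trmt61b and Qtrt1 each lost the call in at least 4 of the 6 such fits, with adjusted p-values up to 0.109, 0.102, 0.113, 0.10 and 0.0946 in edgeR. mt-Nd1, the gene with the largest log2 fold change of the 13, and mt-Nd3 were the members called higher under both scalings, by TMM and by the mitochondrial total.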
